A study of Mus musculus with 6 samples.

Results

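The genes described here encode Toll-like receptors and the proteins that work directly with them: Tlr1, Tlr2, Tlr3, Tlr4, Tlr5, Tlr6, Tlr9, Myd88, Ticam1 and Cd14. They were taken by symbol from the deposited gene table, and all 10 were found among its 27507 gene identifiers. RNA-seq of poly(A) RNA was done in L929, an established mouse fibroblast line, in 3 control samples (genotype label WT) and 3 samples of the line with a STING knockout (STING KO). STING is the adaptor of the endoplasmic reticulum that relays the signal of the DNA sensor cGAS, and the series asks what its loss does to gene expression. No treatment is named for either group, and whether the knockout cells are 1 clone or a pool is not given in the sources used here. The labels do not state that replicates came from separate cultures, and p-values here reflect the spread among these 6 samples, which could be purely technical.

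Toll-like receptors recognise conserved microbial molecules through leucine-rich repeats and signal through a cytoplasmic TIR domain. TLR1, TLR2, TLR4, TLR5 and TLR6 act at the cell surface, while TLR3, TLR7 and TLR9 read nucleic acids inside endosomes. MyD88 serves all of the receptors listed here except TLR3 and leads to NF-kB, and TRIF, the product of Ticam1, serves TLR3 and internalised TLR4 and leads to IRF3 as well. The TRIF branch thus ends at the same kinase, TBK1, and factor, IRF3, as STING. Fibroblasts can respond to bacterial lipoproteins and lipopolysaccharide through such receptors.

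Of the receptor and adaptor genes, Tlr2 was lower in STING KO and no other passed the test. Values are normalized counts, that is gene counts divided by a size factor of each library, and library totals were 14382072 to 14526606. A gene was tested when it reached a value of 10 in at least 3 libraries, which 9 of the 10 did and Tlr9 did not. limma called 1 of these 9 lower and 0 higher with a Benjamini-Hochberg threshold of 0.05. Over all 12408 genes tested, 0.258% were called lower and 0% higher, and without adjustment 394 were lower and 397 higher at this threshold. The log2 fold change was negative for 8 of the 9 and positive for 1, with a median of -0.28, against a median of -0.00251 over all genes tested, 50.8% of which were negative. The libraries of the groups did not overlap for 1 of the 9, Tlr2, as for 12.1% of all genes tested. The 95% interval of the change lay within 2-fold in both directions for 6 of the 9, against 95.1% of all genes tested, and the exceptions were Tlr2, Tlr1 and Cd14. The knocked-out gene itself (Tmem173 in the table) was at 311 to 329 in control and at 80.6 to 93.4 in STING KO, in accord with the labels of all 6 libraries.

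**Figure D1:**
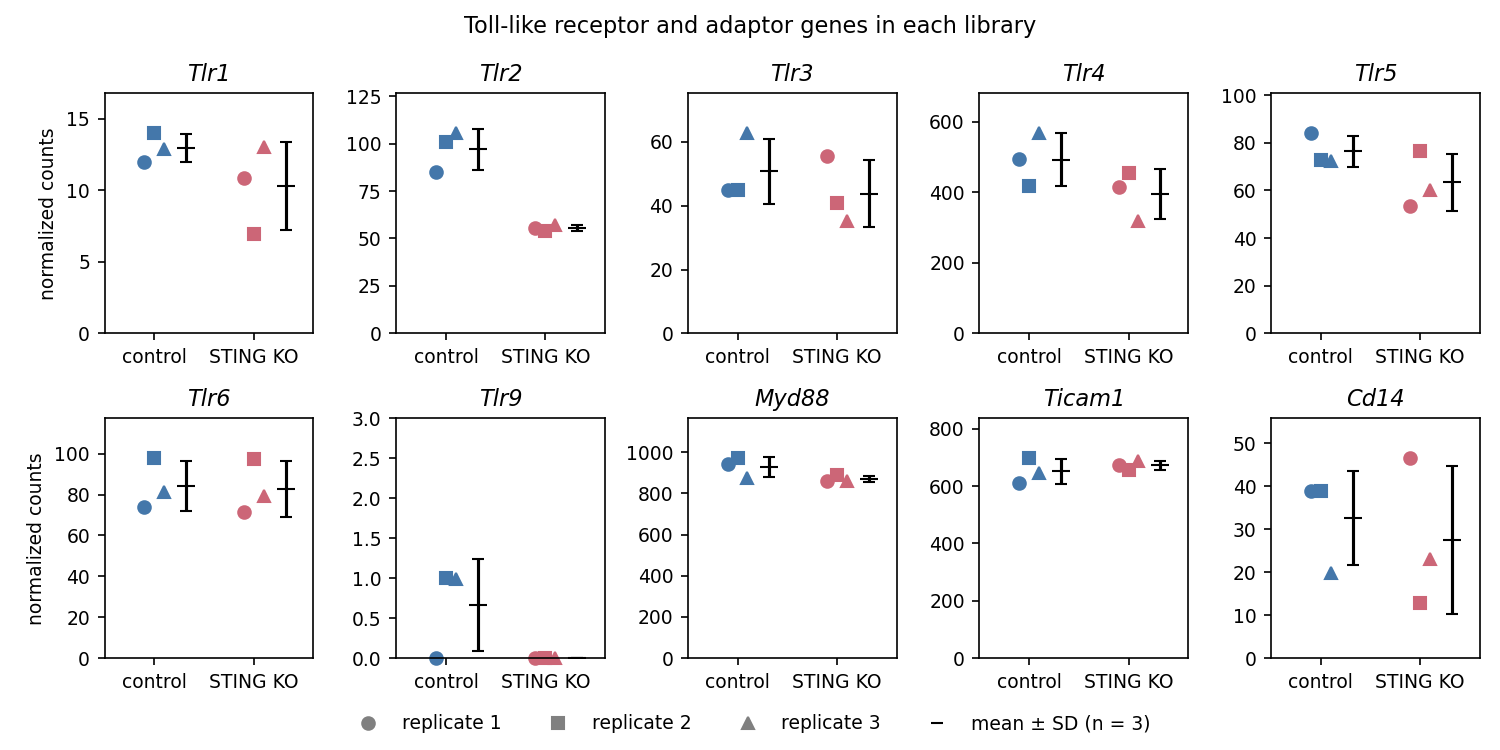
Normalized counts (vertical axes, each from 0) of the 10 receptor and adaptor genes in 3 control (blue) and 3 STING KO (red) libraries, with the symbol giving the replicate and the bar the mean ± SD. Tlr2 is the gene whose groups do not overlap, at 84.9 to 105 against 53.8 to 57.2, as for 12.1% of all genes tested. Tlr9 is at 0 or about 1 in every library.

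Tlr2 encodes the receptor for bacterial lipoproteins, which acts as a dimer with TLR1 or TLR6. The gene (ENSMUSG00000027995) lies on chromosome 3 at 83836272 to 83841767, minus strand, in GRCm38, and is protein coding. Control libraries held 84.9, 101 and 105 normalized counts of it, and STING KO libraries held 55.4, 53.8 and 57.2. Every STING KO value was below every control value, and 12.1% of all genes tested had no overlap in either direction. The STING KO libraries were within 4 counts of each other. The means were 97.0 ± 10.7 and 55.5 ± 1.74 (SD over the 3 libraries of a group, as for each ± below), so 57.2% of the control level was left. The log2 fold change was -0.80 (SE 0.13, limma adjusted p = 0.049), with a 95% interval that leaves 0.471 to 0.702 of the control level. The rounded normalized counts summed to 291 in control and 166 in STING KO, a ratio of 0.570. Taking each normalized count as 1 read, which holds only approximately, the exact 95% interval was 0.469 to 0.693 and covers counting error only. In bulk RNA, fewer cells with the transcript and less of it per cell cannot be told apart.

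The call for Tlr2 was the last of the 32 made, and it ended under 12 of 14 alternative settings other than a replicate block, which ended it too. The adjusted p was 0.066 to 0.318 when any 1 of the 6 libraries was left out, and 0.209 in the authors' deposited table, where 0.251% of the genes with an adjusted p were lower. The size of the change was steadier, with a log2 fold change of -0.89 to -0.74 over all alternatives, negative in each.

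**Figure D2:**
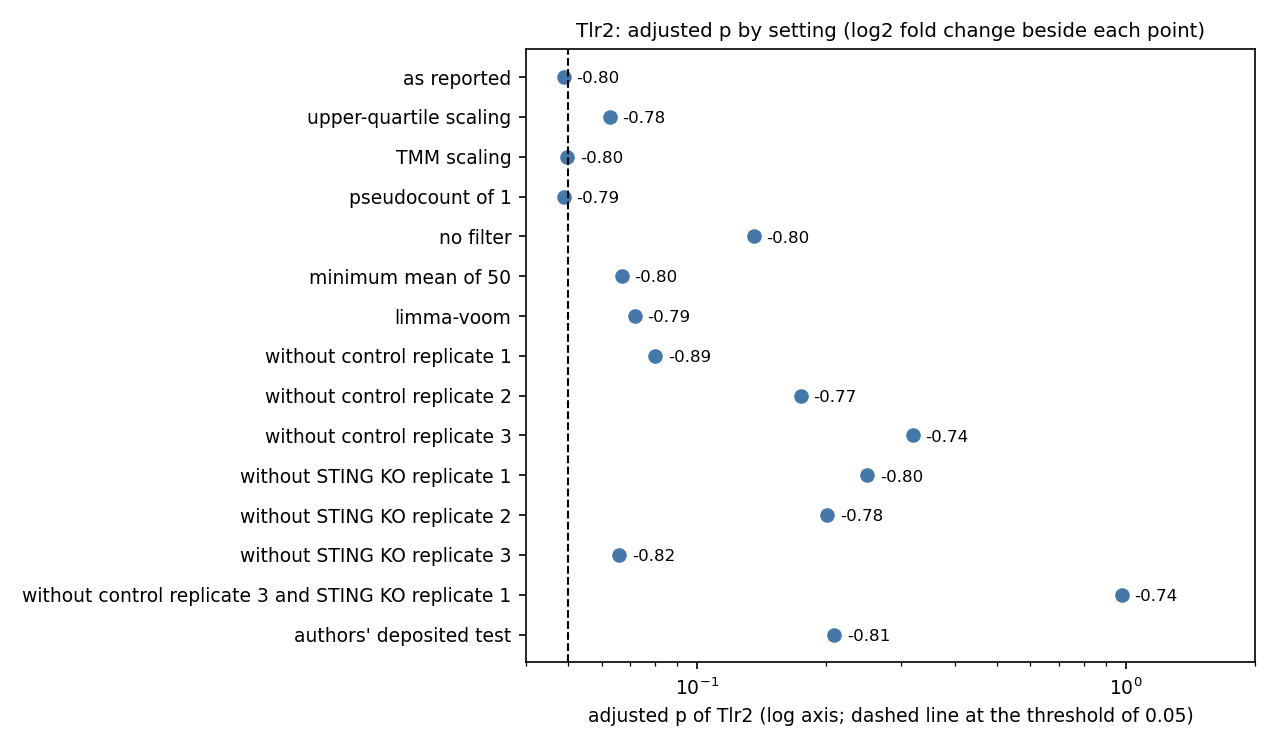
Adjusted p of Tlr2 (horizontal log axis) under the reported setting and 14 alternatives, the replicate block not plotted (vertical axis), with the log2 fold change printed beside each point and a dashed line at 0.05. The reported value of 0.049 lies just inside the threshold, while the log2 fold changes stay between -0.89 and -0.74.

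The stretch upstream of Tlr2 is shown because this gene carried the call and holds letters of the NF-kB consensus. In the promoter windows that RefSeq gives for GRCm38.p6, 250 bases before to 50 after a start, both strands were searched for the NF-kB consensus, for the interferon response core GAAANNGAAA and for the AP-1 site TGANTCA. Windows of 8 of the 10 genes were used. The NF-kB consensus was in 4.51% of all 32851 windows and in windows of 5.14% of all 27025 genes. Among these 8 genes it was in those of Tlr2 and Tlr3. The 91 bases just before the first base of the GENCODE transcript of Tlr2 lie at chr3:83841768-83841858 and are written on the minus strand, 5′ to 3′, with the matched letters in capitals.
Tlr2: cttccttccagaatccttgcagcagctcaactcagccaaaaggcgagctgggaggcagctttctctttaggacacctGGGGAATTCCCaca
The 11 capital letters are 2 overlapping matches, which end 4 bases before that first base. RefSeq places the start further downstream, at 83841608, and another match to the consensus, GGGACATCCC, lies there at 83841607 to 83841616, inside the first exon of the GENCODE transcript. The match in the Tlr3 window, GGGAGTTTCC at 45410582 to 45410591 on chromosome 8, is also within an annotated exon. These are matches of letters, and no binding was measured.

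TLR1 and TLR6, the dimer partners of TLR2, were encoded by RNAs that did not pass the test. Tlr6 (ENSMUSG00000051498, chromosome 5, 64952031 to 64960097, minus strand) encodes the partner for diacylated lipoproteins. It was at 73.9, 97.8 and 81.5 in control and at 71.3, 97.6 and 79.3 in STING KO, so the groups covered almost the same range. Its log2 fold change was -0.03 (SE 0.16, limma adjusted p = 0.955), and the 95% interval was 0.767 to 1.25 of control. Tlr1 (ENSMUSG00000044827, chromosome 5, 64924679 to 64933563, minus strand), for triacylated lipoproteins, was at 11.98, 14.0 and 12.9 in control and at 10.9, 6.97 and 13.1 in STING KO. At 39 and 31 normalized counts in all, its interval of 0.460 to 1.30 of control includes the change of Tlr2. Tlr1 and Tlr6 are neighbours with similar sequence: 13.6% of the 50-base words of Tlr1 transcripts occur in Tlr6 and 12.3% of those of Tlr6 in Tlr1, so reads may be divided between them.

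Within each library, Tlr2 was set against 4 other genes. The ratio of Tlr2 to Tlr6 was 1.15, 1.03 and 1.29 in control, against 0.778, 0.551 and 0.722 in STING KO. The groups did not overlap, and the exact two-sided permutation p was 0.1, the smallest that 3 libraries against 3 can give (0.2 adjusted over the 4 ratios). The ratio of Tlr2 to Myd88 did not overlap either, at 0.0901, 0.104 and 0.120 in control against 0.0606 to 0.0664 (exact permutation p = 0.1, adjusted 0.2). The ratios to Tlr4 (exact permutation p = 0.2, adjusted 0.267) and to Tlr1 (exact permutation p = 0.3, adjusted 0.3) overlapped between the groups. No ratio can pass 0.05 in this design, so the test does not show that Tlr2 changed differently from any of the 4 genes.

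**Figure D3:**
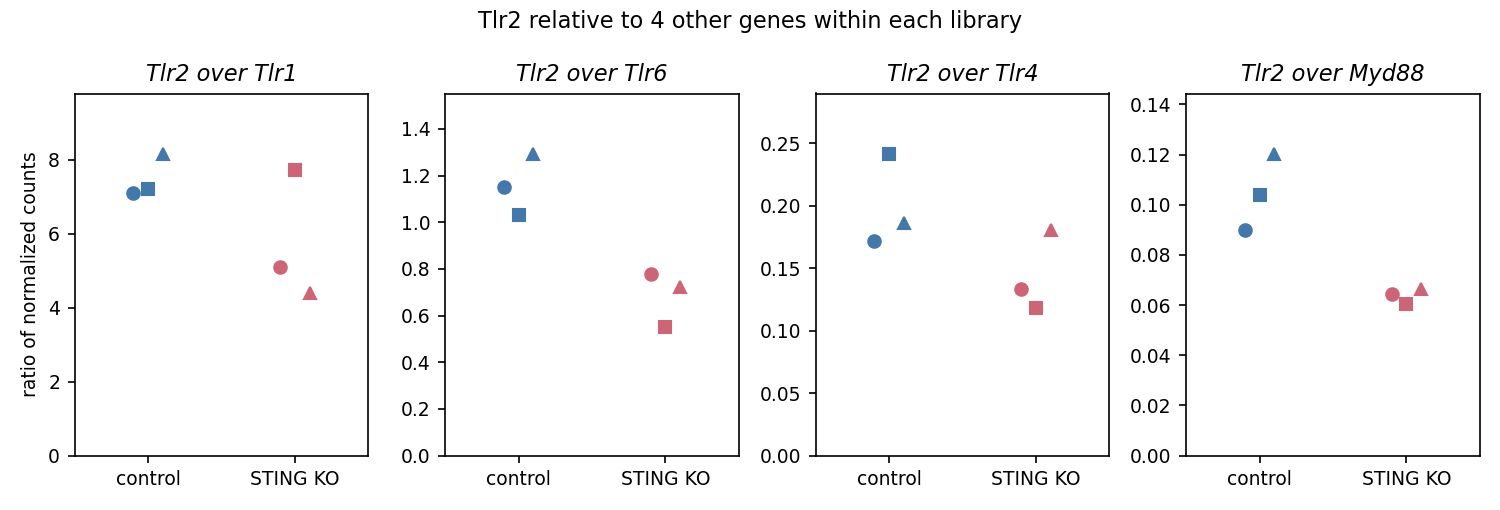
Ratio of Tlr2 to Tlr1, Tlr6, Tlr4 and Myd88 within each library (vertical axes from 0), for 3 control (blue) and 3 STING KO (red) libraries, with circles, squares and triangles for replicates 1, 2 and 3. The ratios to Tlr6 and Myd88 separate the groups, and those to Tlr1 and Tlr4 overlap.

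Tlr4, the receptor for lipopolysaccharide, was the receptor gene with the highest normalized counts. The gene (ENSMUSG00000039005, chromosome 4, 66827584 to 66930284, plus strand) was at 493, 417 and 566 normalized counts in control, against 415, 454 and 317 in STING KO. STING KO replicate 2 lay above control replicate 2, so the groups overlapped. The means were 492 ± 74.7 and 395 ± 70.4 (n = 3 each), and limma gave a log2 fold change of -0.32 with an SE of 0.14 (adjusted p = 0.738) and a 95% interval of -0.64 to 0.00 on that scale. Depth was not the limit for this gene. The variance within groups was 11.9 times the mean, where counting alone gives about 1, and for Tlr2 it was 0.621 times. Its highest library, control replicate 3, and its lowest, STING KO replicate 3, were also the ends of the first principal component of all genes tested (scores of 21.7 and -21.1, 40.3% of the variance). The part of that gradient in the difference was not tested.

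The genes for partners of TLR4 in lipopolysaccharide recognition did not pass the test. Cd14 (ENSMUSG00000051439) encodes the co-receptor that hands lipopolysaccharide to TLR4 and MD-2. It was at 38.9, 38.9 and 19.9 in control and at 46.5, 12.9 and 23.1 in STING KO, with the highest and the lowest value both in STING KO libraries. The log2 fold change of -0.37 had an SE of 0.44 (limma adjusted p = 0.806), and the interval of 0.389 to 1.54 of control includes large changes in both directions. Without control replicate 3 and STING KO replicate 1 the log2 fold change of Cd14 was -1.17, still not called. Ly96, which encodes MD-2, was at 62.9, 75.8 and 46.7 in control and at 61.4, 53.8 and 47.2 in STING KO, and Lbp, the serum protein that binds lipopolysaccharide, was at 87.4 to 98.8 and 82.6 to 99.4.

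Tlr5, the receptor for flagellin, was at 83.9, 72.8 and 72.5 in control and at 53.4, 76.7 and 60.3 in STING KO. The gene (ENSMUSG00000079164) lies on chromosome 1 at 182954788 to 182976044, plus strand. STING KO replicate 2 stood within the control range and the other 2 STING KO libraries below it. The log2 fold change was -0.28 (SE 0.16, limma adjusted p = 0.738), with an interval of 0.644 to 1.05 of control.

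Of the endosomal receptors, RNA of Tlr3 and Tlr7 was present and that of Tlr9 was not detectable beyond single counts. Tlr3 (ENSMUSG00000031639, chromosome 8, 45395665 to 45411080, minus strand), the receptor for double-stranded RNA, was at 44.9, 44.9 and 62.6 in control and at 55.4, 40.8 and 35.1 in STING KO. The highest value of each group was in control replicate 3 and STING KO replicate 1. The log2 fold change was -0.22 (SE 0.21, limma adjusted p = 0.774), with an interval of 0.616 to 1.19 of control. Tlr9 (ENSMUSG00000045322, chromosome 9, 106222598 to 106226883, plus strand), the receptor for unmethylated CpG DNA, had about 1 count each in control replicates 2 and 3 and 0 in every other library. A count of 0 allows up to 3 counts, so no fold is given. Tlr7, for single-stranded RNA, was at 51.9 to 67.9 in control and 47.2 to 64.3 in STING KO. Tlr8 had about 1 count in 1 library and Tlr12 about 1 count in each of 2 libraries, while Tlr11 was at 1.98 to 3.99 in all 6.

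Control replicate 3 and STING KO replicate 1 stood apart from the other libraries in transcripts typical of hepatocytes, and in part of the markers of other cell types. The summed level of 11 hepatocyte markers was 4842 and 4654 in these libraries and 241 to 625 in the other 4. Of 12 macrophage and leukocyte markers, 6 were higher in both than in each of the other 4 (Adgre1, Csf1r, Itgam, Lyz2, Tyrobp and Fcer1g). Ptprc, Cd68, Laptm5, Spi1, Aif1 and Cd74 were not. So were 2 of 4 epithelial markers (Krt18 and Cdh1) and 2 of 10 fibroblast markers (Dcn and Lum) higher in both. The same held for 1 of 4 endothelial markers (Pecam1) and 1 of 6 B cell and plasmacytoid markers (Ly6d). The pathway genes named below were chosen after their values were seen. The share of all genes that were higher in both libraries than in the other 4 was not counted, so these counts have no background. Lyz2, the lysozyme of macrophages, was at 97.4 and 71.3 there against 16.0 to 22.1 elsewhere, and Tyrobp, an adaptor of myeloid receptors, at 8.94 and 6.93 against 0 to 2.01. Of the pathway genes, Clec7a (dectin-1) was at 9.93 and 10.9 there and at 0 elsewhere, and Ctss, a protease that cleaves endosomal receptors, at 42.7 and 34.6 against at most 3.99. Tlr13, the receptor for bacterial ribosomal RNA, had 2.98 and 3.96 counts there and 0 elsewhere, and Unc93b1, the chaperone that carries endosomal receptors, was at 78.5 and 73.2 there and at 41.9 to 55.8 elsewhere. Tlr3 moved with these libraries within each group, and without both its log2 fold change was -0.25; the part of these transcripts in its values was not tested. Without both, Tlr2 was at -0.74 with a limma adjusted p of 0.98, in a fit with 2 libraries per group that called 13 genes in all.

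The adaptor genes had the highest levels and the narrowest intervals. Myd88 (ENSMUSG00000032508, chromosome 9, 119335934 to 119341411, minus strand) was at 941, 971 and 875 in control and at 861, 887 and 862 in STING KO. Control replicate 3 lay below STING KO replicate 2, so the groups overlapped. The log2 fold change was -0.09 (SE 0.06, limma adjusted p = 0.738), with an interval of 0.855 to 1.03 of control. Of the 50-base words of Myd88 transcripts, 7.42% occur in the opposite strand gene Acaa1a, and since the strand setting is not given in the sources used here, some reads may belong to that gene. Ticam1 (ENSMUSG00000047123, chromosome 17, 56269319 to 56276786, minus strand) was at 612, 697 and 647 in control and at 675, 657 and 688 in STING KO. Its log2 fold change, 0.05 with an SE of 0.07 (limma adjusted p = 0.826), was the 1 positive value, with an interval of 0.933 to 1.15 of control.

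The start of Myd88 is shown beside that of Tlr2 because its window holds the interferon response core and no NF-kB consensus. GAAANNGAAA was in 3.44% of all windows and in windows of 3.99% of all genes. Among the 8 genes it was in windows of Myd88 and Tlr6. The AP-1 letters, in 7.81% of all windows and in windows of 8.97% of all genes, were in that of Tlr9. The 100 bases before the GENCODE transcript whose first exon holds the RefSeq start lie at chr9:119340042-119340141, minus strand, with the core in capitals.
Myd88: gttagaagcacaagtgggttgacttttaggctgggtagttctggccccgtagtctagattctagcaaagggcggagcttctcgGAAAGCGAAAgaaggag
Myd88 was not among the called genes. Tlr3, with a match to the NF-kB consensus, and Tlr6, with the interferon response core, were not called either. Whether these letters bear on the calls was not tested.

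The second pair of adaptors was unequal in level. Tirap, which bridges MyD88 to TLR2 and TLR4, was at 577 to 612 in control and 504 to 578 in STING KO. Ticam2, which bridges TRIF to TLR4, was listed at 1.99 counts in control replicate 3 and at 0 in the other 5 libraries, and was not tested.

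Levels of different genes were compared per kilobase of merged exons, as normalized counts per kb. In control, Myd88 was at 361 ± 19.0, Ticam1 at 218 ± 14.3 and Tlr4 at 88.6 ± 13.4 (n = 3 each), against a median of 113 over all genes tested. Tlr2 followed at 32.2 ± 3.56, Tlr6 at 22.6 ± 3.27, Cd14 at 18.8 ± 6.35 and Tlr5 at 16.0 ± 1.35 (n = 3 each). Tlr3 at 9.76, Tlr1 at 3.87 and Tlr9 at 0.191 were the lowest. Neighbours in this order did not overlap between their 3 control libraries, except Tlr6 with Cd14 and Cd14 with Tlr5. Only the order of Tlr2 and Tlr6 was different in STING KO among the receptors, with Tlr2 at 17.8 to 19.0 and Tlr6 at 19.1 to 26.2 counts per kb. With the longest transcript in place of merged exons Tlr4 was at 121 and Tlr5, at 20.0, stood just above Cd14, at 19.8.

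**Figure D4:**
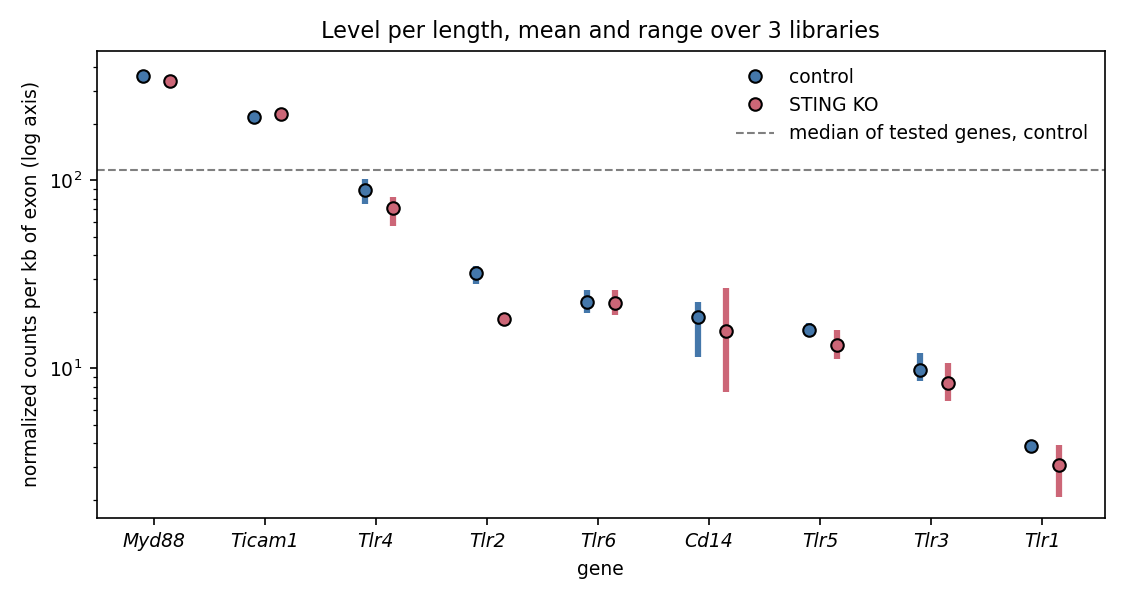
Normalized counts per kb of merged exons (vertical log axis) of 9 genes, ordered by the control mean, with points for means and bars for the range of 3 control (blue) and 3 STING KO (red) libraries and a dashed line at the median of all genes tested in control, 113. Myd88 and Ticam1 lie above that line and the receptors below it, and Tlr2 is above Tlr6 in control and below it in STING KO.

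Summed over the 7 receptor genes, the level was 793, 748 and 902 normalized counts in control and 661, 730 and 562 in STING KO. The groups did not overlap, the STING KO mean was 80.0% of the control mean, and the exact two-sided permutation p was 0.1, the smallest possible here. Tlr4 made up 60.2 ± 3.91% of the control sum and 60.5 ± 3.5% of the STING KO sum (n = 3 each). Without Tlr4 the sum was 300 to 336 in control and 245 to 276 in STING KO, 79.4% of control. The means of this smaller sum were 322 and 256, and Tlr2, the called gene, gave 97.0 and 55.5 of them. A sum without Tlr2 was not tested, so these sums do not show a decrease shared by the other receptors. The share of Tlr2 was 11.9 ± 1.4% against 8.64 ± 1.42% in STING KO (n = 3 each; exact permutation p = 0.1).

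A further 5 lists cover the rest of the pathway, by role. Among other receptors, ligand carriers and co-receptors, 0 of 8 tested genes were called, and among the genes for folding, trafficking and cleavage of the receptors 0 of 17. These counts are near the 0.258% called over all genes tested. Cd36, a scavenger receptor and co-receptor of TLR2, was at 262 ± 2.89 in control against 217 ± 42.6 (n = 3 each; limma adjusted p = 0.738). Bgn, which encodes the matrix ligand biglycan, was at 3978 and 4411. Hsp90b1, the chaperone gp96 needed to fold most of these receptors, stood at 26800 ± 747 in control against 28337 ± 973 (n = 3 each; limma adjusted p = 0.738), and Hps1, a trafficking factor of lysosome-related organelles, was at 330 and 388 (limma adjusted p = 0.544).

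Among the other adaptors, kinases and ubiquitin ligases below the receptors, 0 of 31 tested genes were called, at a median log2 fold change of -0.06. That count, too, is near the 0.258% called over all genes tested. Traf3, the ligase of the TRIF branch, was at 1472 ± 108 in control against 1243 ± 33.6 (n = 3 each), or -0.24 on the log2 scale (SE 0.06, limma adjusted p = 0.476). Ikbke, a kinase related to TBK1, was at 235 and 197 (limma adjusted p = 0.738). Irak1, the kinase that binds MyD88, was at 3063 and 2868 (limma adjusted p = 0.738).

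The calls in the pathway lay in 2 lists, the brakes and the transcription factors. Of the brakes, 3 of 20 tested genes were lower and 0 higher. They were Zc3h12a (26.2% of control), which encodes an RNase for cytokine mRNAs, Nfkbiz (56.5%), an atypical IkB protein that can also activate genes, and Tnip1 (65.7%), a partner of A20. Of the transcription factors and their inhibitors, 6 of 20 were lower and 0 higher. Relb (52.0%), Cebpd (54.7%), Nfkbia (55.3%), Junb (63.4%), Irf1 (72.5%) and Nfkb2 (78.0%) fell, while Rela, an activating NF-kB subunit, was at 2311 and 2236 (limma adjusted p = 0.812). The median log2 fold change was -0.24 for this list and -0.03 for the brakes, whose member Usp4 was at 2536 and 2533. These lists were chosen with earlier results on NF-kB genes known. Together the 5 lists had 9 of 96 tested genes called lower, beside the 0.258% of all genes, and the count was 4 without control replicate 3 and STING KO replicate 1 together. Nfkb2 and Irf1 were not called without control replicate 1 (limma adjusted p of 0.237 and 0.209), control replicate 3 (0.181 and 0.148) or STING KO replicate 1 (0.217 and 0.182), and Irf1 was also not called without STING KO replicate 2 (0.077).

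**Figure D5:**
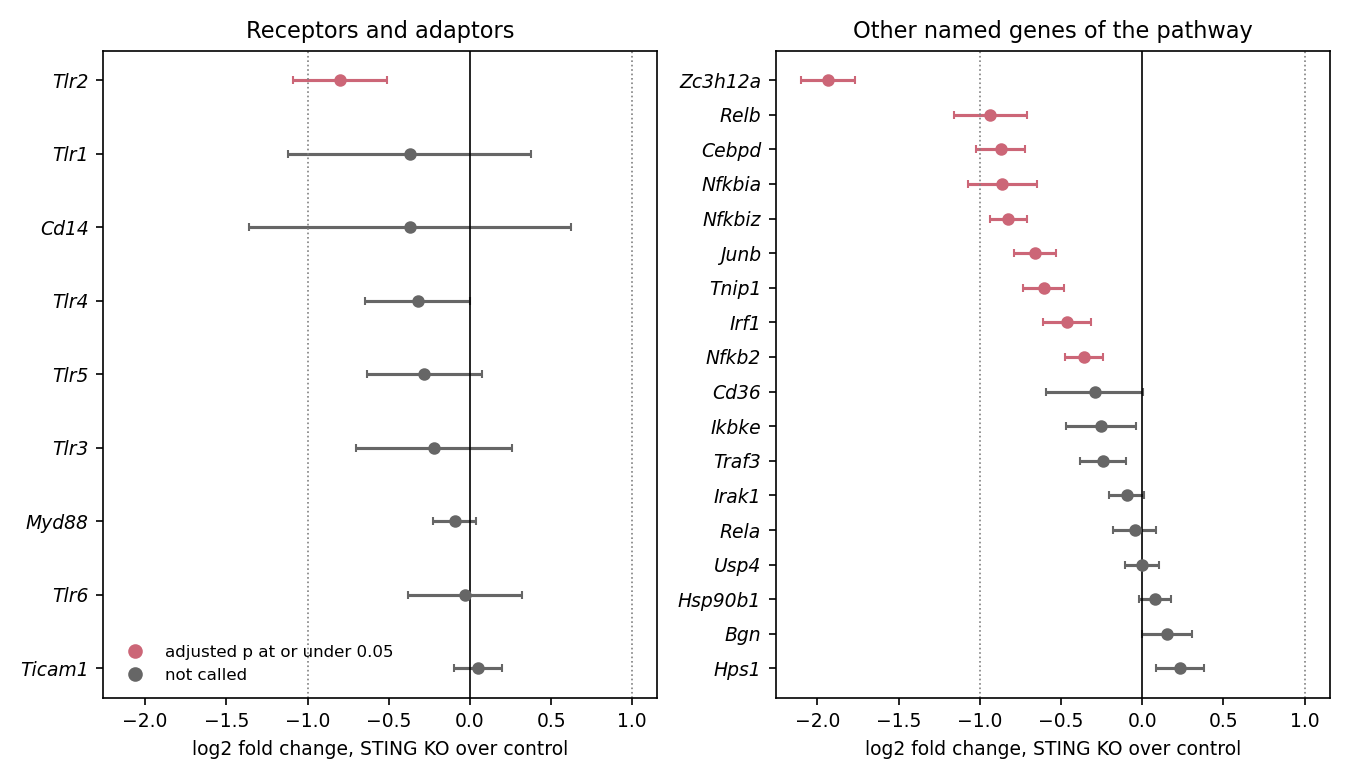
Change on the log2 scale, STING KO relative to control (horizontal axes), with 95% intervals from limma, for the 9 tested receptor and adaptor genes and for 18 other genes of the pathway, with called genes in red and dotted lines at 2-fold. Tlr2 is called among the receptors and adaptors, and the 9 called genes on the right run from -1.93 for Zc3h12a to -0.36 for Nfkb2.

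L929 cells had the collagen and vimentin RNA of fibroblasts, with Col1a1 at 10264 to 12691 and Vim at 79614 to 103473 in all 6 libraries. Of the other fibroblast markers, Col1a2, Col3a1, Pdgfra, Pdgfrb and S100a4 were at 1250 or more in every library. Thy1 was low, at 28.1 to 59.6, and Dcn (0 to 94.4) and Lum (0 to 31.8) were too low to be tested. Macrophages express many Toll-like receptors, so their markers were read beside the receptor genes. Of 12 macrophage and leukocyte markers 5 were tested and 0 called, and their summed level was 1347 to 1606 in control and 1391 to 1556 in STING KO. Cd68 and Cd74 made up most of it. The other 10 summed to 242 in control replicate 3 and 186 in STING KO replicate 1, against 77.3 to 103 in the other 4 libraries. Csf1r, the receptor for macrophage colony-stimulating factor, was at 28.0 to 49.7 and Laptm5, a lysosomal protein of leukocytes, at 8.03 to 46.7. Ptprc (CD45) was at most at 13.0, Adgre1 (F4/80) at 0 to 4.97 and Itgam (CD11b) at 0 to 2.97. Siglech, a marker of plasmacytoid dendritic cells, which use TLR9, was at 0 in every library.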

How the data were processed

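Per the submitters' processing notes, which give tools without role or order, the tools were RSEM 1.2.12, DESeq2 1.4.5, Bowtie2 2.2.5 and HISAT2 2.0.4 and the builds GRCm38 and mm10; neither the annotation nor the strand setting is given in those notes. The authors deposited 1 table. Its sample columns hold a signal, gene counts divided by a size factor by the authors: in each column 100% of values above 0 were whole multiples, within 0.01, of a step of 0.990 to 1.00. Per the file headers it also holds the authors' log2 fold change, its standard error and the Wald statistic (scores), and p-values. The first of repeated rows (314) was used. GENCODE M21 (27480 identifiers matched) gave positions and merged exon lengths, and promoters came from RefSeq.

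From these values, a trended limma model (limma 3.58.1, R 4.3.3) was fitted to log2(normalized count + 0.1) over 12408 genes that reached 10 in 3 or more samples, without covariates. Fold changes are differences of mean log values on this scale. For low genes they can differ from the authors' values, as for Cd14, at -0.37 here and -0.24 in the authors' test. The fit was tested on simulated data. Single values used exact permutation tests in scipy 1.17.1. Named genes are the members, the knocked-out gene and, in each pathway list, called genes, the 2 with the smallest p and the 1 with the highest level; other names help describe a group and were chosen after their values were seen. The members and lists were chosen with earlier results of these data known. Other scalings, pseudocount, filters, limma-voom, the authors' test, a replicate block and left-out libraries were tried.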

Additional observations from a re-analysis of the deposited data

How the results depend on the processing

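The 32 genes called lower became 18 with the replicate block, 13 without control replicate 3 and STING KO replicate 1 together, and 21 to 35 when 1 library was left out. The 0 called higher became 6 in the authors' deposited test and 0 to 2 with 1 library left out. Of the receptor and adaptor genes, the 1 called lower (Tlr2) became 0 with upper-quartile scaling, no filter, a minimum mean of 50, limma-voom, the replicate block, the authors' test, without both libraries together, and with any 1 library left out (0 in each such fit). It was kept with TMM scaling (limma adjusted p = 0.0499), a pseudocount of 1 (0.049) and a fold threshold of 1.5. The adjusted p of Tlr2 was 0.0627 with upper-quartile scaling, 0.136 with no filter, 0.067 with the minimum mean, 0.0717 with limma-voom and 0.266 with the block. The 9 pathway genes called lower became 4 without both libraries together and were 7 to 9 otherwise. Of 132 values of receptor and adaptor genes under other settings, 119 kept their call, 13 (all Tlr2, the block included) lost it, and 4 values of uncalled genes changed sign, 3 of Tlr6 and 1 of Cd14. The summed receptor level was 75.1% to 85.4% of control with 1 library left out. The labels do not state whether replicate numbers pair the samples. Deviations of same-numbered samples from their group means correlated at -0.183, -0.180 and -0.488, which gives no sign of pairing, but other pairings were not compared. The edgeR and DESeq2 fits planned for recovered reads were not run, since the values are normalized. Depth limits Tlr9 (2 counts in all) and Tlr1 (39 and 31), while for Cd14 the variance within groups was 7.24 times the mean.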
